A study of Mus musculus with 8 samples.

Results

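Mouse chromosome 18 (mm9) was examined for its A/B compartment blocks and the contacts among them in mouse embryonic stem cells given an antisense oligonucleotide against L1 RNA or a scrambled control. The chromosome was chosen by a measured value, as the autosome with the smallest change in an earlier segregation index that used repeat-based labels, so the values below on the same contrast are a description and carry no test. Of its 182 bins of 500 kb, 176 were kept, out of 4778 kept bins on the 19 autosomes and 5091 with chromosome X. With bins labelled by eigenvector 1 of the contact maps in place of repeats, chromosome 18 did not have the smallest change. The index with repeat-based labels was not recomputed, so the ranks given here rest on other labels than the choice did. Counted from the smallest, the drop in the index on chromosome 18 was 8th of 19, and the chromosomes with the smallest drops were chromosome 4 (-0.172) and chromosome 14 (-0.183).

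Chromosomes in mammalian nuclei fold so that active, gene-rich stretches (compartment A) touch one another and silent stretches (compartment B) touch one another, which gives Hi-C maps their plaid pattern. In the mouse, A stretches tend to be rich in SINE repeats such as B1, and B stretches in LINE-1 (L1) repeats, which are often found at the nuclear lamina and around nucleoli. The first eigenvector of the correlation matrix of a map summarises the plaid pattern, with one sign for A and the other for B.

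The study asked whether L1 RNA is needed for this separation. Hi-C was made from mouse embryonic stem cells nucleofected with a morpholino antisense oligonucleotide (AMO) at 5 nmol per 100 μl, sorted 12 h later for transfected cells and harvested at 36 h. One group received L1 AMO and the other SCR AMO, with 2 samples each. Samples of a group came from separate transfections according to the study's methods. Both groups therefore share the nucleofection, the sort and the recovery time, and an effect of the L1 AMO other than on L1 RNA has no control of its own here. The oligonucleotides are shown because they are the only intended difference between the groups. No part is singled out by capitals.
L1 AMO: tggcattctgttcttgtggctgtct
SCR AMO: cctcttacctcagttacaatttata
Each is 25 bases long.

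Depth differed between the samples. SCR AMO held 112381720 and 22252054 contacts and L1 AMO held 58030519 and 46263849, of which 2930784, 574805, 1590482 and 1295890 lay within chromosome 18. A pair of bins on this chromosome held a median of 42 and 7 counts in SCR AMO and of 21 and 17 in L1 AMO, so SCR AMO replicate 2 is the least precise for single pairs of blocks. The share of all contacts that joined different chromosomes was 22.3% and 22.8% in SCR AMO and 15.8% and 14.2% in L1 AMO, so it moved with the groups. The totals of both SCR AMO matrices depart from the valid pairs that the study lists, while those of L1 AMO are close to them. The way each matrix was produced and the AMO therefore cannot be told apart.

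Chromosome 18 was finely divided. Eigenvector 1 of the mean map of the 4 samples put 84 bins in A and 92 in B, in 38 uninterrupted runs, 10 of which were a single bin. That is 2.16 runs per 10 bins, second to chromosome 19 with 2.74. Runs of at least 4 bins were named in order from the centromeric end, which gave 7 A blocks and 11 B blocks with 143 bins between them. The A blocks lie at 4-7 Mb (A-block 1), 10-14 Mb (A-block 2), 24-26 Mb (A-block 3), 31.5-39.5 Mb (A-block 4), 60.5-68.5 Mb (A-block 5), 74-78.5 Mb (A-block 6) and 80-83.5 Mb (A-block 7). The B blocks lie at 8-10 Mb (B-block 1), 15.5-20.5 Mb (B-block 2), 21.5-24 Mb (B-block 3), 26-31.5 Mb (B-block 4), 39.5-42 Mb (B-block 5), 47.5-50 Mb (B-block 6), 50.5-53 Mb (B-block 7), 54-56.5 Mb (B-block 8), 57-60.5 Mb (B-block 9), 70-74 Mb (B-block 10) and 85-90.8 Mb (B-block 11). The middle of the chromosome, between A-block 4 and A-block 5, therefore held 5 named B blocks and no named A block. Genes and repeats in these blocks were not analysed here.

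The block pattern was shared by both groups, with a lower contrast in L1 AMO. The eigenvectors of single samples over the 176 bins correlated at r = 0.988 within SCR AMO and r = 0.987 within L1 AMO, and at 0.960 to 0.978 between the groups. These are correlations across bins of the same chromosome and map, given as a description. The segregation index, the mean contact frequency of bin pairs of the same kind over that of pairs of different kinds, was 2.24 and 2.28 in SCR AMO and 2.05 and 2.01 in L1 AMO. The groups did not overlap, and the mean changed from 2.26 ± 0.024 to 2.03 ± 0.029 (SD, n = 2). This index is not corrected for distance, so the decay of contacts with distance and the length of runs enter it. With each distance scaled to its own mean, the index was 1.46 in SCR AMO and 1.31 in L1 AMO, again without overlap. The compartment strength, taken from the extreme 20% of bins on either side of the eigenvector, was 2.71 and 2.74 in SCR AMO and 2.00 and 1.90 in L1 AMO. It was lower in both L1 AMO samples, with a change in the mean of -28.5%.

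Relative to the mean at each distance, contacts among A bins were lower in L1 AMO and contacts between A and B bins higher. The values are observed contact frequencies over the mean of the chromosome at each distance, so that 1 is the average. Each sample is scaled to its own mean, so the kinds are tied and a fall in one goes with a rise elsewhere. They are not separate findings or absolute losses and gains. A-A contacts were 1.25 and 1.26 in SCR AMO and 1.14 and 1.11 in L1 AMO, and A-B contacts were 0.815 and 0.811 in SCR AMO and 0.862 and 0.872 in L1 AMO. Neither overlapped between the groups, with changes of -10.3% and 6.68%. B-B contacts were 1.134 and 1.135 in SCR AMO and 1.138 and 1.146 in L1 AMO. The mean changed by 0.672%, and the size and sign of this change depended on the processing. Without balancing the difference in means was 0.0705 and with balancing within the chromosome 0.0315, in place of 0.0076. With 1-Mb bins or with labels taken from SCR AMO alone it turned to the opposite sign, and the groups then overlapped.

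**Figure D1:**
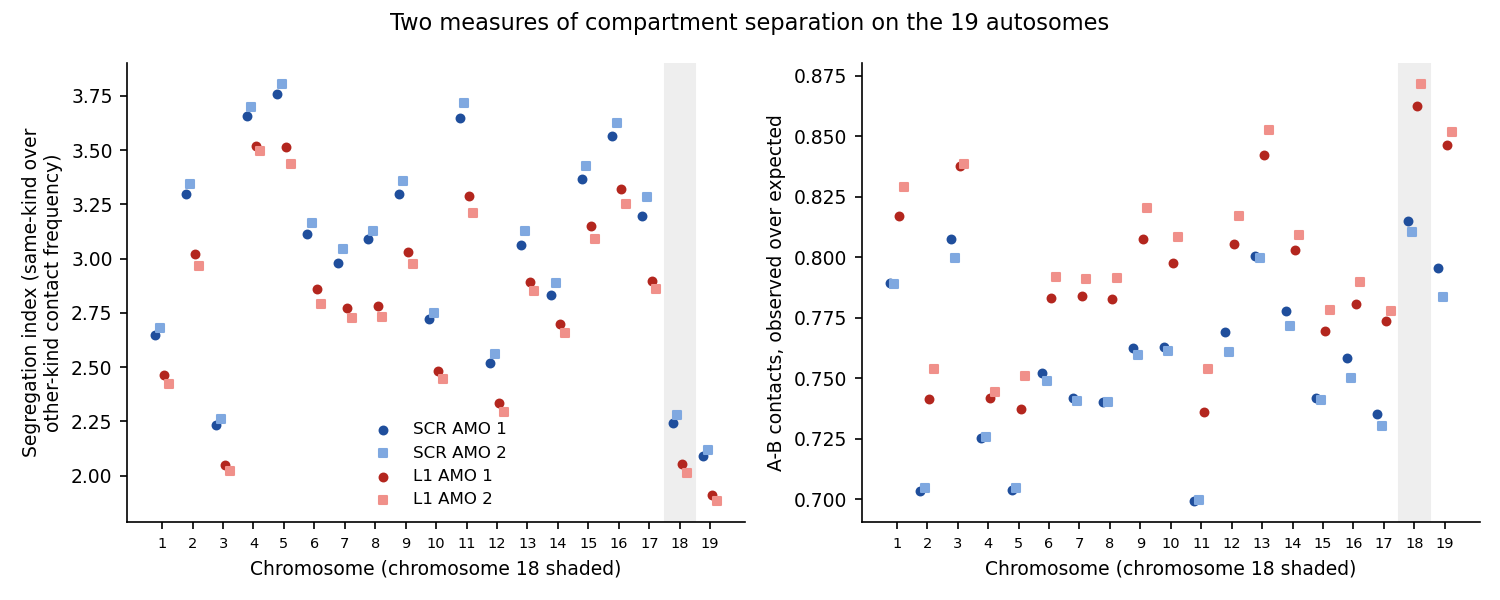
Segregation index (left) and A-B contacts as observed over expected frequency (right) for each of the 19 autosomes, with 1 point per sample and chromosome 18 shaded. On chromosome 18 the index fell from 2.24 and 2.28 to 2.05 and 2.01, and its A-B contacts in SCR AMO (0.815 and 0.811) gave the highest mean of the 19 autosomes.

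Set beside the other autosomes in that plot, chromosome 18 started from a weak separation. Its mean A-B level in SCR AMO, 0.813, was the highest of 19, where the lowest was 0.699, and its index in SCR AMO was the third lowest. In proportion to its level, the drop in the index was -10.2%, which was 16th of 19 counted from the smallest and so among the larger ones, with a median of -9.45% over the autosomes. All 19 autosomes had a lower index in L1 AMO with no overlap, so the direction was common to them. Differences between chromosomes were not tested, and the length of runs enters the ranks of the index.

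The distance between contacting bins changed as well. Bins up to 2 Mb apart, or the same bin, held 73.6% and 75.7% of the chromosome's contacts in SCR AMO and 73.6% and 74.1% in L1 AMO, and these overlapped. Within that range, neighbouring bins held less in L1 AMO with no overlap, 19.8% and 19.2% against 21.9% and 21.4% in SCR AMO, while contacts inside a bin and over 1 to 2 Mb overlapped. Contacts over 2 to 10 Mb made up 10.4% and 9.48% in SCR AMO and 12.1% and 12.1% in L1 AMO. Contacts beyond 10 Mb made up 16.0% and 14.8% in SCR AMO and 14.2% and 13.9% in L1 AMO. The middle range was thus higher and the far range lower in L1 AMO with no overlap. In finer bands the log2 ratio of L1 AMO over SCR AMO was 0.33 over 2 to 5 Mb and 0.23 over 5 to 10 Mb, then -0.11, -0.12 and -0.18 over 10 to 20, 20 to 40 and 40 to 60 Mb, and -0.32 beyond 60 Mb. The medians of the autosomes in the first and last of these bands were 0.31 and -0.37.

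**Figure D2:**
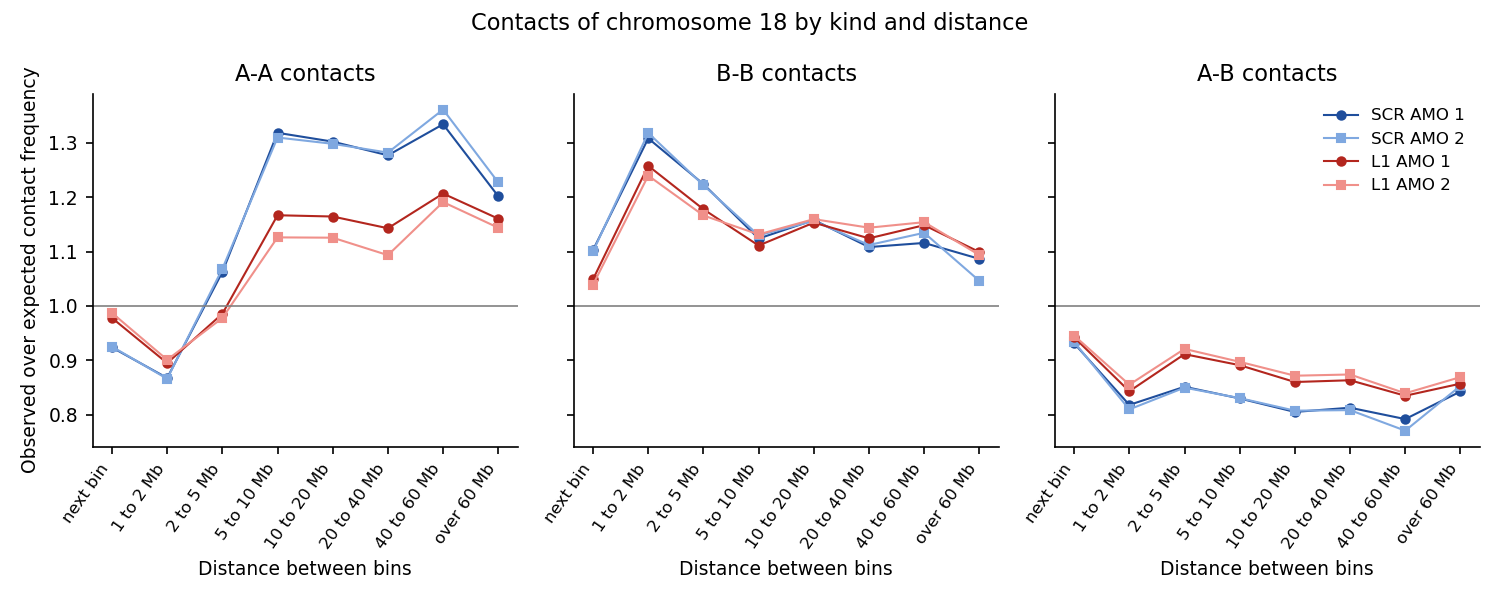
Observed over expected contact frequency on chromosome 18 (vertical axis, no unit) by distance between bins (horizontal axis) for A-A, B-B and A-B pairs, with 1 line per sample. Over 5 to 10 Mb the A-A values were 1.32 and 1.31 in SCR AMO and 1.17 and 1.13 in L1 AMO, while A-B values were above those of SCR AMO in every band.

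Divided by kind, A-A contacts, again scaled to each sample's mean at each distance, changed direction with distance. They were higher in L1 AMO between neighbouring bins (6.28%) and over 1 to 2 Mb (3.59%), and lower in every band beyond 2 Mb, with -12.8% over 5 to 10 Mb. B-B contacts were lower at short range, with changes of -5.22% between neighbouring bins, -4.91% over 1 to 2 Mb and -4.17% over 2 to 5 Mb. Beyond 20 Mb they were higher by 2.16% to 2.82%, and from 5 to 20 Mb the groups overlapped. A-B contacts were higher in all 8 bands, with changes from 1.23% between neighbouring bins to 7.72% over 2 to 5 Mb. None of the A-A or A-B bands overlapped between the groups.

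Single blocks differed in how far their preference for their own kind fell. The preference of a block is its mean observed over expected contact with the rest of its own kind, divided by that with the other kind. A-block 5 had a preference of 1.80 and 1.80 in SCR AMO and of 1.44 and 1.38 in L1 AMO, a change of -21.6%. A-block 4 had 1.86 and 1.93 in SCR AMO and 1.54 and 1.48 in L1 AMO. These 2 blocks of 16 bins each had the largest changes among the named blocks. All 7 A blocks were lower with no overlap, with a median of -16.7%. Blocks of the other autosomes were not measured in this way.

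**Figure D3:**
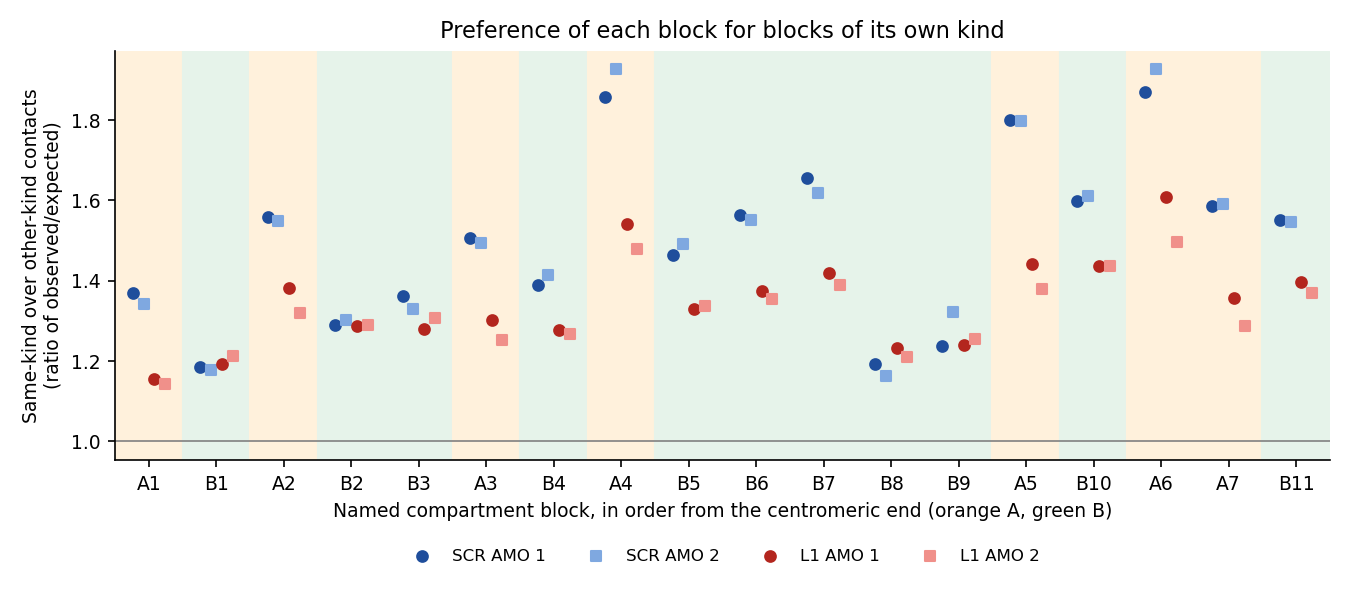
Preference of each named block of chromosome 18 for its own kind (vertical axis, a ratio of observed over expected contacts) in order from the centromeric end, with 1 point per sample and shading for the kind. All 7 A blocks and 7 of 11 B blocks were lower in both L1 AMO samples, while B-blocks 1 and 8 were higher. No share over blocks of other autosomes was computed.

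The same preference was taken for the B blocks. Of 11, 7 had a lower preference in L1 AMO with no overlap and the median of the B blocks was -9.18%. B-block 7 had the largest change among them, from 1.65 and 1.62 to 1.42 and 1.39. B-block 8 went the other way, with 1.19 and 1.16 in SCR AMO and 1.23 and 1.21 in L1 AMO, and so did B-block 1, with 1.18 and 1.18 against 1.19 and 1.21. B-block 2 and B-block 9 overlapped between the groups. The blocks that rose had the lowest preferences in SCR AMO of the 18. Contacts with the other kind were higher in L1 AMO in 18 of 18 named blocks. Contacts with the own kind were lower in 10 (all 7 A and 3 B blocks) and higher in 4. Taken over whole chromosomes, A-B contacts were higher and A-A contacts lower with no overlap on all 19 autosomes. No share over the blocks of other autosomes was computed, so nothing is read from these block counts.

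Contacts inside the named blocks were also compared. All 11 B blocks had lower internal contacts in L1 AMO, the most in B-block 8 with 1.69 and 1.72 in SCR AMO and 1.57 and 1.52 in L1 AMO. Of the A blocks, 5 had higher internal contacts, the most in A-block 6 with 0.840 and 0.820 against 0.902 and 0.904, and A-blocks 5 and 7 had lower ones. Where a named A block adjoins a named B block, contacts over the border were higher in L1 AMO at all 7 borders. The border at 74 Mb between B-block 10 and A-block 6 changed most, from 0.557 and 0.525 to 0.672 and 0.725, and the border at 26 Mb between A-block 3 and B-block 4 changed least, with 3.16%. Block and border values were computed on this chromosome alone and with the main processing alone. No share over other autosomes stands beside these counts, so nothing is read from them.

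Among the 153 pairs of named blocks, 46 had a larger and 62 a smaller share of the chromosome's contacts in L1 AMO with no overlap. Over all runs, short ones included, 131 of the 697 tested pairs of chromosome 18 were larger (18.8%, beside 16.1% of the 13043 pairs on all autosomes) and 282 smaller (40.5%, beside 50.6%).

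Counts by kind stand beside the share of such pairs over all autosomes, where longer chromosomes hold pairs that are farther apart. Of 21 A-A pairs of named blocks, 2 were larger (4.90% over all autosomes) and 17 smaller (86.6%). Of 55 B-B pairs, 13 were larger (15.5%) and 25 smaller (58.3%). Of 77 A-B pairs, 31 were larger (28.2%) and 20 smaller (46.4%). Each distance was then scaled to its own mean. On that scale 2 A-A pairs were higher (6.49%) and 16 lower (70.5%), 14 B-B pairs were higher (40%) and 20 lower (27.2%), and 52 A-B pairs were higher (51.2%) and 1 lower (15.8%). The same contrast chose the chromosome, so nothing is read from these counts.

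**Figure D4:**
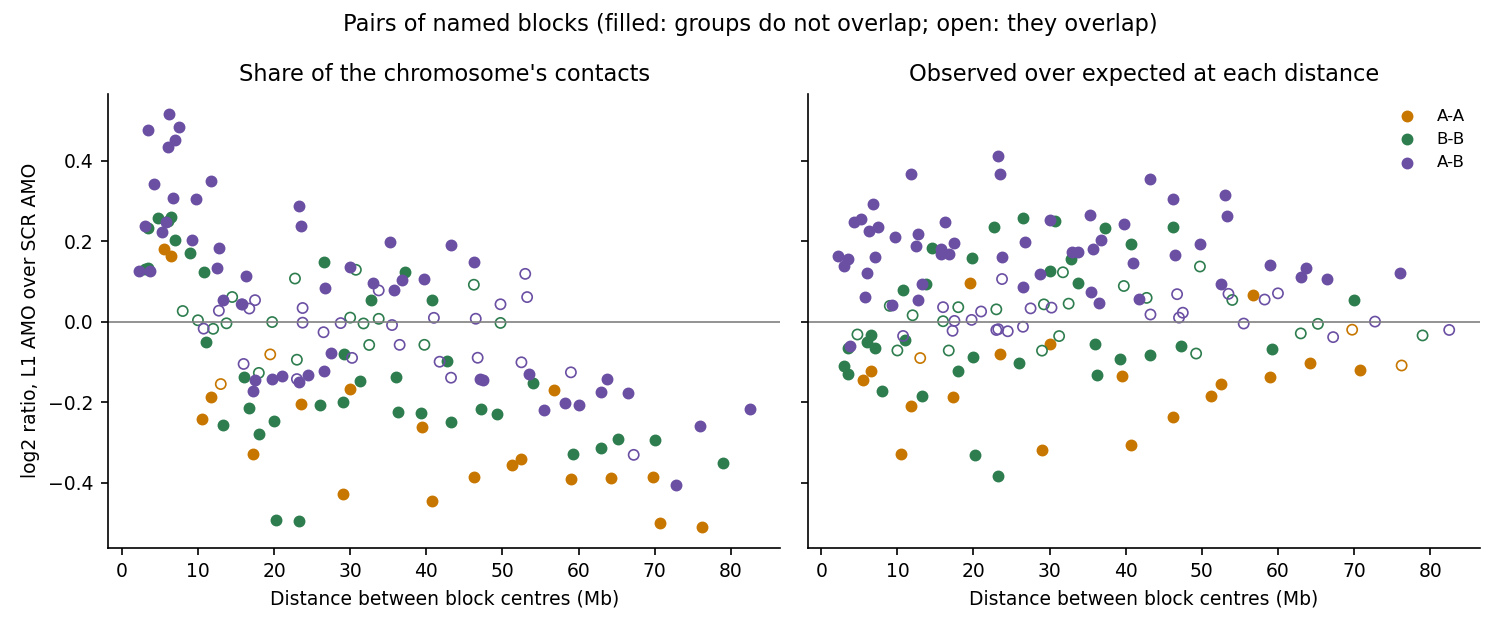
Log2 ratio of L1 AMO over SCR AMO for the 153 pairs of named blocks against the distance between their centres in Mb, as a share of the chromosome's contacts (left) and as observed over expected (right). Filled points are pairs whose groups do not overlap, and colours give the kind. On the left, all 14 A-B pairs within 10 Mb lie above 0 and all 10 A-A pairs beyond 40 Mb lie below 0.

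The largest rises joined A and B blocks that lie near each other. A-block 7 with B-block 11 at the distal end, 6.25 Mb apart, had 33.0 and 31.8 contacts per bin pair in SCR AMO, with the contacts of the chromosome scaled to a total of 1000000, and 45.0 and 47.6 in L1 AMO, a log2 ratio of 0.52. A-block 5 with B-block 10 followed with 22.4 and 20.5 against 29.91 and 30.04 (0.49), and A-block 1 with B-block 1 with 69.3 and 60.1 against 89.1 and 90.9 (0.48). Corrected for distance, all 3 remained higher in L1 AMO. The largest A-B falls joined far blocks and were led by B-block 1 with A-block 7, 72.75 Mb apart, with 5.13 and 4.91 against 3.73 and 3.85. That pair overlapped between the groups once corrected for distance.

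Far A-A pairs had the largest falls of their kind. A-block 1 with A-block 7, 76.25 Mb apart, had 6.50 and 7.01 in SCR AMO and 5.09 and 4.39 in L1 AMO, on 832 and 172 against 352 and 239 counts. Corrected for distance, this pair overlapped between the groups, with 1.18 and 1.31 against 1.18 and 1.13. A-block 4 with A-block 6 had 17.8 and 16.9 against 13.2 and 12.3, and its observed over expected value went from 1.45 and 1.49 to 1.21 and 1.17. The A-A pairs that rose, A-block 6 with A-block 7 (0.18) and A-block 1 with A-block 2 (0.16), lie within 10 Mb, and both were lower in L1 AMO when corrected for distance.

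B-B pairs held both directions. B-block 6 with B-block 10, 23.25 Mb apart, had 23.7 and 24.3 in SCR AMO and 17.06 and 16.99 in L1 AMO, and B-block 7 with B-block 10 had 24.7 and 23.0 against 16.7 and 17.2. Their log2 ratios, -0.50 and -0.49, were near those of the far A-A pairs, and both remained lower when corrected for distance. Of the 13 B-B pairs that rose, 8 lie within 10 Mb. The largest rise was of B-block 6 with B-block 8, with 35.0 and 31.9 against 39.8 and 40.4, and this pair was lower in L1 AMO when corrected for distance.

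In counts of contacts, edgeR's quasi-likelihood test at a false discovery rate of 0.05 called 148 of 697 pairs of runs on chromosome 18 higher and 70 lower in L1 AMO. The calls over all autosomes were 21.7% higher and 22.0% lower, and since the same contrast chose the chromosome, nothing is read from these counts. Without TMM normalization the split was 70 higher and 175 lower, and the median log2 change of all pairs moved from -0.03 to -0.16. With the decay with distance taken as an offset, 79 were higher and 73 lower, beside 13.5% and 13.6% over all autosomes.

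**Figure D5:**
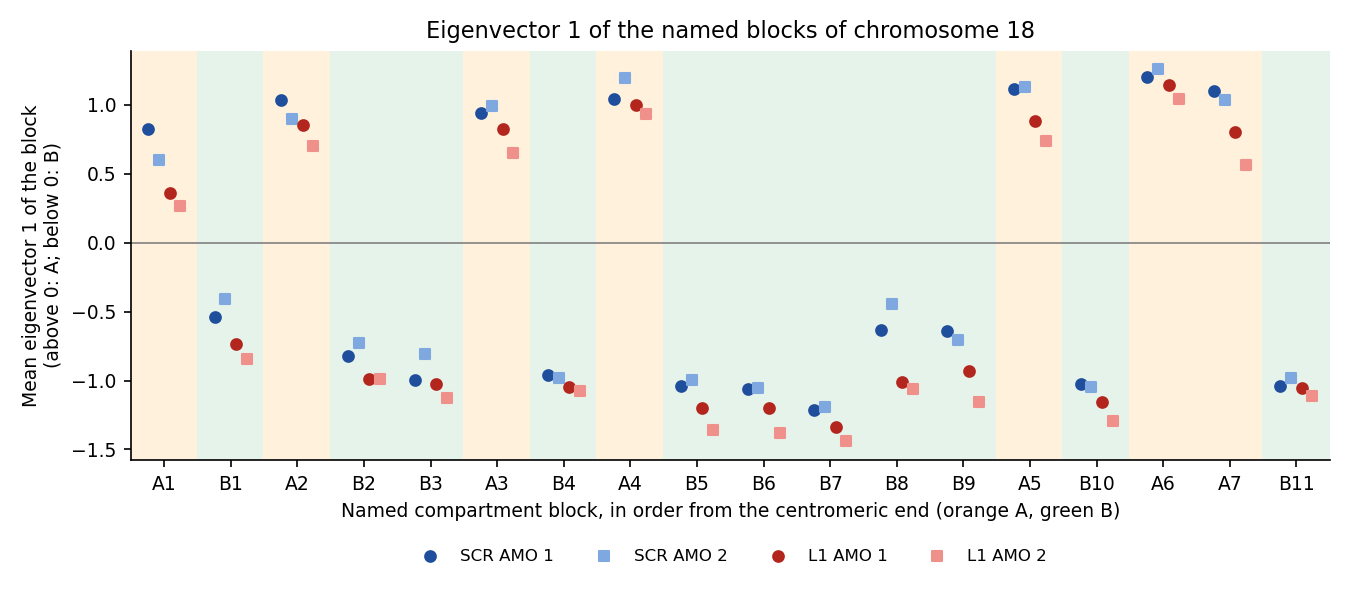
Mean eigenvector 1 of each named block of chromosome 18 (vertical axis, scaled to an SD of 1 in each sample) in order from the centromeric end, with 1 point per sample. Before centring of the samples, all 18 blocks sit lower in L1 AMO, and no named block changed sign.

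Eigenvector 1 of single bins was lower in L1 AMO along most of the chromosome. Of 176 bins, 130 did not overlap between the groups (beside 64.3% of bins over all autosomes), 123 of them lower and 7 higher. The mean over the chromosome was 0.020 and 0.050 in SCR AMO and -0.17 and -0.29 in L1 AMO, so most of this was a common shift. With each sample centred on its own mean, 110 bins did not overlap, 48 lower and 62 higher. In 8 bins the sign went from A in both SCR AMO samples to B in both L1 AMO samples, at 6.5, 14, 25.5, 47, 57, 62.5, 63 and 83.5 Mb. This is the direction of the common shift, and after centring the sign differed between the groups in 3 bins. No share over all autosomes was computed for sign changes or for centred counts, so nothing is read from these counts. The largest change was at 81.5 Mb inside A-block 7, with 1.14 and 0.96 in SCR AMO and 0.29 and 0.096 in L1 AMO. The next were at 57 Mb (-0.79), 53 Mb (-0.76), 13.5 Mb (-0.76) and 83.5 Mb (-0.71). These 5 bins also had the largest changes after centring.

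Contacts with other chromosomes made up 39.1% and 39.5% of the contacts of chromosome 18 in SCR AMO and 29.2% and 26.6% in L1 AMO. Relative to their mean, A-A contacts with other autosomes were 1.417 and 1.362 in SCR AMO and 1.357 and 1.298 in L1 AMO, and B-B contacts were 0.946 and 0.950 against 0.993 and 1.02. The B-B values rose with no overlap, and the A-A values were lower in L1 AMO with a narrow gap between the groups. B-B values rose with no overlap on all 19 autosomes, by 5.76% to 12.1%, beside 6.21% on chromosome 18. A-A values were lower with no overlap on 15 of the 19. Their changes ranged from -10.6% to -2.37% over the 19, beside -4.45% on chromosome 18. A-B contacts overlapped. Chromosome 19 was the most frequent partner, with 1.46 and 1.39 in SCR AMO and 1.47 and 1.40 in L1 AMO. The partners with the largest changes were chromosome 1, with 0.835 and 0.856 against 0.957 and 0.974, and chromosome 14, with 1.02 and 1.03 against 1.15 and 1.15. Most other partners were lower in L1 AMO with no overlap. Values are relative to the mean over partners, so a rise in some lowers others. Partners were computed for chromosome 18 alone, so whether other chromosomes share these changes was not tested.

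The lower share of contacts between chromosomes in L1 AMO moved with each of these results. After the average level of contacts between chromosomes had been subtracted from every pair, the difference in the segregation index was -0.251 in place of -0.230 and that in compartment strength was -0.904 in place of -0.777. The difference in the share beyond 10 Mb was -1.11 in place of -1.38 points, and that in B-B contacts was 0.0060 in place of 0.0076. The average was subtracted after balancing, so an effect of the lower share on the balancing would remain. The paper also reports more cells arrested in G2/M after L1 AMO, in a small population, and does not regard its results as secondary to changes in cell state. The part of the lower share, of cell state and of other differences between the matrices in these results was not tested.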

How the data were processed

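Hi-C data from 2 SCR AMO and 2 L1 AMO samples were used, and the H3K9me3 ChIP samples were not analysed here. The deposited values are raw counts of contacts between 500-kb bins of mm9, which the authors did not normalize. The labels name CASAVA and HiC-Pro 2.7.1b. The 2 matrices of each L1 AMO sample were added. Replicates were taken as labelled, and the study's methods give them as separate transfections. No counting intervals were computed for the shares and indices. Depth limits single pairs of blocks and the small B-B difference, which moved when the samples were thinned to one depth.

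A bin was dropped where its coverage fell below 0.1 of the median of its chromosome in at least 1 sample. Maps were balanced genome-wide by iterative correction, and expected values were means per distance. Eigenvector 1 was oriented by the repeat densities of chromosome 1 and, from there, by contacts between chromosomes. Blocks, pairs and bins were named by fixed rules: blocks of at least 4 bins, the 3 largest rises and falls per kind, and the 5 largest changes and every sign change among bins. The members and lists were chosen with earlier results of these data known. Not overlapping means that both samples of a group lie above both of the other.

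Pairs with a mean of at least 10 counts were tested with edgeR 4.0.16 (TMM, quasi-likelihood test, Benjamini-Hochberg adjustment) in R 4.3.3, with DESeq2 1.42.0 as an alternative. Python 3.11.15, numpy 2.4.6 and pandas 2.3.3 were used. The measures were tested on simulated data. The index, computed with the simulated labels, and the share beyond 10 Mb were recovered at every contrast tried. The index with labels from eigenvector 1, as used for the observed maps, and the other distance shares were not checked. The A/B labels were not recovered at the weakest simulated contrast, so recovery of labels was then required only of the stronger ones. The observed maps have a higher compartment strength than any simulated map, but all simulated runs were 10 bins long. Recovery of labels in shorter runs was therefore not tested. On chromosome 18 these are most of the named blocks and the 20 of 38 runs with fewer than 4 bins.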

Additional observations from a re-analysis of the deposited data

How the results depend on the processing

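Values are differences, L1 AMO minus SCR AMO, unless named otherwise. The segregation index, A-A contacts, A-B contacts, compartment strength and the share beyond 10 Mb kept their direction without overlap under every alternative run. Without balancing, the differences were -0.159 (A-A), 0.0705 (B-B), 0.0770 (A-B) and -0.950 (strength). With balancing within the chromosome they were -0.272 (index), -0.157 (A-A), 0.0315 (B-B) and 0.0600 (A-B). With 1-Mb bins they were -0.108 (A-A), 0.0444 (A-B) and -0.642 (strength), and the correlation of eigenvector 1 between groups was 0.962. B-B contacts reversed with 1-Mb bins (-0.0040) and with labels from SCR AMO alone (-0.00099), and the cause was not tested. The index moved to -0.286 with contacts inside a bin, -0.155 as observed over expected and -0.276 with labels from SCR AMO alone. With labels from L1 AMO alone the differences were -0.145 (A-A), 0.0157 (B-B), 0.0413 (A-B) and -0.655 (strength), and with corners of 10% the strength differed by -1.07. Thinning to one depth gave 0.0123 for B-B, and the second L1 AMO matrix alone gave a correlation of 0.961. Leaving out contacts inside a bin gave -2.09 points within 2 Mb and 3.94 points over 2 to 10 Mb, and limits of 5 and 20 Mb gave 0.672 points within 5 Mb and 0.344 points over 5 to 20 Mb, where the groups overlapped. Taking off the background between chromosomes, an alternative chosen after seeing the data, gave 0.0597 (A-B) and -0.904 (strength).

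Leaving out each sample in turn gave -0.271 to -0.194 for the index, -1.82 to 0.250 points within 2 Mb, 1.72 to 2.61 points over 2 to 10 Mb, -1.97 to -0.793 points beyond 10 Mb, -0.140 to -0.114 for A-A, 0.0021 to 0.0112 for B-B, 0.0494 to 0.0601 for A-B, -0.836 to -0.740 for strength and 0.964 to 0.976 for the correlation. The B-B difference was 0.0021 without L1 AMO replicate 2, and the share beyond 10 Mb differed by -0.793 points without SCR AMO replicate 1.

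Called pairs ranged from 79 to 156 higher and from 21 to 72 lower when a sample was left out, the lowest of both without SCR AMO replicate 1, the deepest sample. They were 70 higher and 175 lower without TMM normalization, 96 and 29 with DESeq2, and 79 higher with the distance offset. Replicate numbers are shared by the groups. Deviations of same-numbered samples correlated at 0.0777 over all pairs. With a replicate block, edgeR's common dispersion, its estimate of spread between replicates, was lower than without it. The block gave 167 higher and 81 lower. On chromosome 18, replicate 1 lay above replicate 2 in both groups for the share beyond 10 Mb. For the segregation index it did so in L1 AMO alone. These values do not decide whether same-numbered samples are paired, and the main test was run without the block. No A/B label is finer than 500 kb, and SCR AMO replicate 2 had a median of 7 counts per bin pair.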
